A study of Mus musculus with 12 samples.

Results

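The club cell and airway secretory genes are Scgb1a1, Scgb3a1, Scgb3a2, Cbr2, Bpifa1, Bpifb1, Muc5b and Reg3g, chosen by name from what is known of the lining of the conducting airways. All 8 were on the array, out of 26228 named genes, with 10 spots between them, since Cbr2 and Muc5b had 2 spots each. The arrays measured total RNA of female B6C3F1/Nctr mice, labelled with the single dye Cy3, in 4 groups of 3 arrays: untreated liver, liver after 0.7 mM acrylamide, untreated lung and lung after 0.7 mM acrylamide. Controls are described as matched for age to the treated mice, and neither the age nor the route and length of exposure is given in the sources used here. The tissue entry of all 12 arrays and the series text say liver, whereas 6 arrays carry lung in both title and source name. Arrays are named below by tissue, treatment and the number in the title.

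Club cells are dome-shaped secretory cells of the bronchioles. They release secretoglobins, small secreted proteins, and carry enzymes that metabolise inhaled and blood-borne chemicals. Higher up in the airways, secretory cells of the surface and of submucosal glands make the gel-forming mucins, the BPI fold proteins of innate defence and the antimicrobial lectins that line the airway surface. Scgb1a1, Scgb3a2 and Cbr2 are textbook club cell genes of the distal airways. Scgb3a1, Bpifa1, Bpifb1 and Muc5b are best known from the proximal airways and their glands, and Reg3g is induced there by infection.

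Levels are given as scaled intensity, the Cy3 intensity divided by the 75th percentile of its array and multiplied by 1000, so that a value of 1000 is the 75th percentile. Differences are in log2 units, so that a difference of 1 is a doubling. A spot brighter than 95 percent of the negative controls printed on the same array was taken as above background. A gene was called where limma's adjusted p, corrected over all genes tested, was under 0.05. Levels of different probes are not compared with each other, because probes differ in how well they bind.

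The promoters of the members are shown because 5 of the 8 genes moved together from array to array, as described below. RefSeq's table of assembly GRCm38.p6 held 6 promoters of 5 members, with 2 for Bpifb1. The 250 bases before the start are printed for Scgb3a1, Bpifa1, Bpifb1 (the start nearer to Bpifa1) and Reg3g, which moved together, and for Cbr2, which did not. They are written 5′ to 3′ along the gene's own strand, and capitals mark matches to the motifs searched.
Scgb3a1, chr11:49663345-49663594, plus strand: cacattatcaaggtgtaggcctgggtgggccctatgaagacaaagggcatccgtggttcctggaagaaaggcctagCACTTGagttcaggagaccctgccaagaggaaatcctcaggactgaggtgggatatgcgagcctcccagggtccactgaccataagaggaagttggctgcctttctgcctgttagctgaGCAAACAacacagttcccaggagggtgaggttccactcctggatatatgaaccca
Bpifa1, chr2:154142630-154142879, plus strand: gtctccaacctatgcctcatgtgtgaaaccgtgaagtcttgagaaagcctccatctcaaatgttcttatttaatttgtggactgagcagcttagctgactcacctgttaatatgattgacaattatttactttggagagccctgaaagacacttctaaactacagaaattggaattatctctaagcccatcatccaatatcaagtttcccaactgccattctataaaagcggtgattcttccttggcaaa
Bpifb1, chr2:154190568-154190817, plus strand: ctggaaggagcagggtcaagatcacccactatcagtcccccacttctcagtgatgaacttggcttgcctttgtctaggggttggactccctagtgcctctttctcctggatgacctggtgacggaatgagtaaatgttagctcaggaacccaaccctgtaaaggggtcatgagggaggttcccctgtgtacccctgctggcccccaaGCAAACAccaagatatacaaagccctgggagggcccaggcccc
Reg3g, chr6:78468875-78469124, minus strand: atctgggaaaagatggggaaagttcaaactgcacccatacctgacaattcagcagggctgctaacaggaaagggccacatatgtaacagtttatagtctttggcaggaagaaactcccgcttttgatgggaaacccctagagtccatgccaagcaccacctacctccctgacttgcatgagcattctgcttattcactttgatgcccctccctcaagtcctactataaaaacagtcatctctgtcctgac
Cbr2, chr11:120732022-120732271, minus strand: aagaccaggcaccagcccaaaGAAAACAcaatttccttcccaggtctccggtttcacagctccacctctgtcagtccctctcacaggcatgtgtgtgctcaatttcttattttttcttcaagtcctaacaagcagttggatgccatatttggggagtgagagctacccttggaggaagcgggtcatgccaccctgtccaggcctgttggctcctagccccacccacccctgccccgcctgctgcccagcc

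The motifs searched were the core bound by NKX2-1, a lung lineage factor (CACTTG, or CAAGTG on the other strand), and a forkhead motif of the FOXA factors of endoderm (TGTTTNC, or GNAAACA on the other strand). The NKX2-1 core was in 1 of the 6 member promoters, that of Scgb3a1, at positions -174 to -169 from the start. It was in 11.6% of all 32851 promoters of this length. The forkhead motif was in 3 of the 6, against 17.8% of all. It lay at positions -55 to -49 in Scgb3a1, -43 to -37 in the Bpifb1 promoter printed, and -229 to -223 in Cbr2. No match overlapped another. Bpifa1, Reg3g and the other Bpifb1 promoter held neither motif in this window. Of the 4 genes that moved together and have a promoter here, Scgb3a1 and Bpifb1 held a match and Bpifa1 and Reg3g held none. A match is a description of the letters and does not show binding.

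Lung arrays were brighter, with 75th percentiles from 839.4 to 1376 in raw units, than liver arrays, with 294.5 to 621.5. Liver acrylamide 30 stood apart, with a background limit of 16.8 in raw intensity against 2.35 to 4.45 on the other 11 arrays, and with 34287 spots above background against at least 46450. The 8 hepatocyte markers summed to 2912365 or more on every liver array and to at most 32579 on lung arrays. The 9 alveolar type 2 markers summed to 876308 or more on every lung array and to at most 75007 on liver arrays, so the titles, not the tissue entry, describe the arrays. Titles of liver arrays begin with 19 and those of lung arrays with 18. This number and those after it are read here as slide, row and column, which the labels do not state. The number read as the slide cannot be told apart from the tissue. The labels do not state whether arrays of a group came from different animals. The p-values therefore describe only the spread among these arrays, and that spread may be technical.

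The members fell into 2 kinds across the 6 lung arrays, a grouping made after their values were seen. Scgb1a1, Scgb3a2 and Cbr2 were nearly level. Scgb3a1, Bpifa1, Bpifb1, Muc5b and Reg3g ranged from 117-fold to 1455-fold between lung arrays, and the untreated group alone spanned that range. All 5 were highest on control 4 and lowest on control 6.

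**Figure D1:**
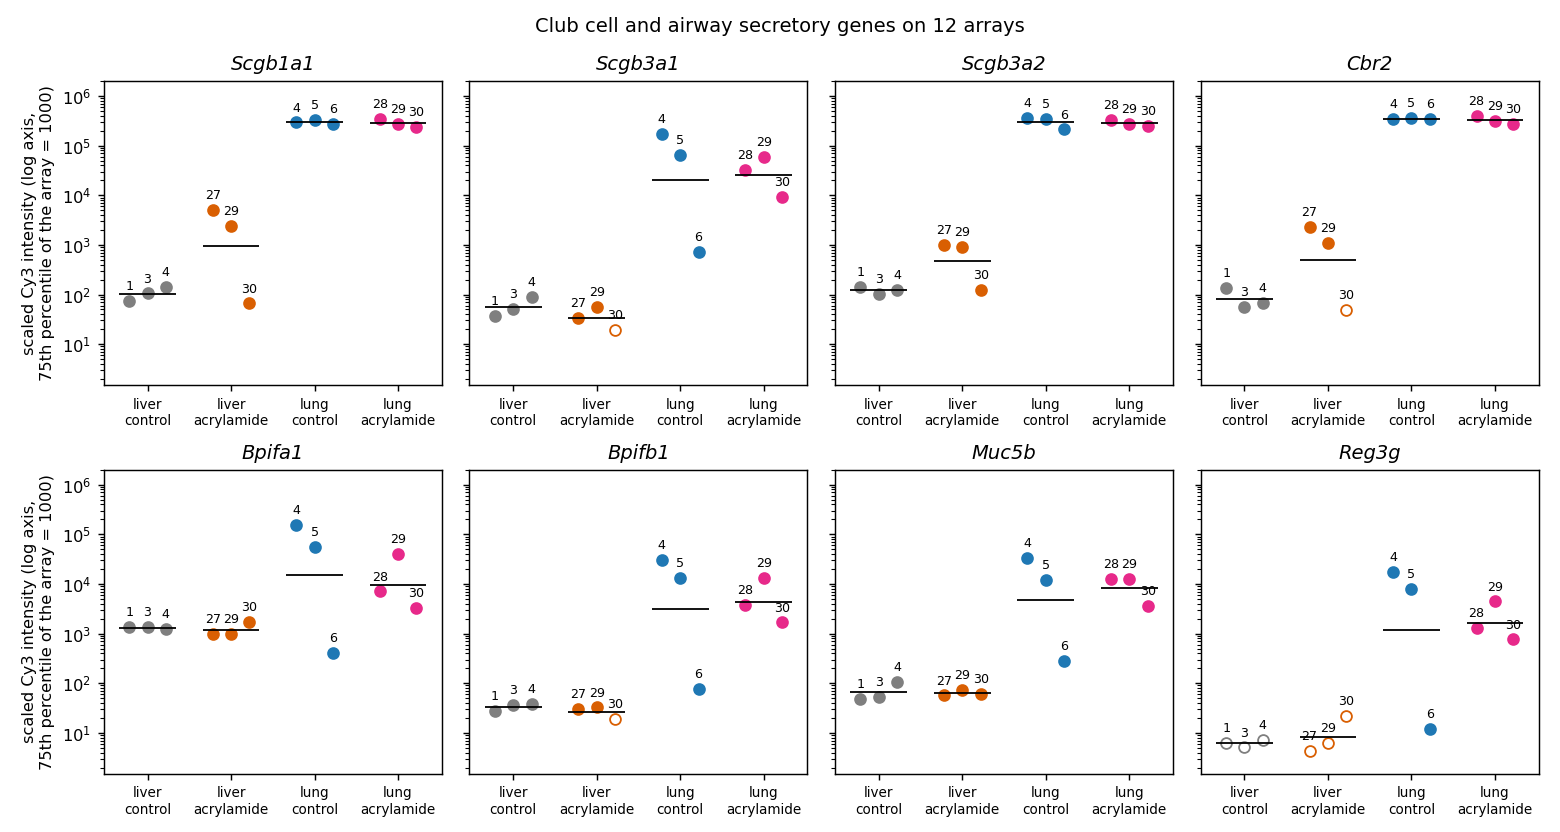
Scaled Cy3 intensity (log axis, 75th percentile of the array = 1000) of the 8 members on 12 arrays in 4 groups. Each point is an array with its title number, open points are not above background, and bars are group means of log2 levels. Scgb1a1, Scgb3a2 and Cbr2 are level in lung and raised on liver acrylamide 27 and 29, while Scgb3a1, Bpifa1, Bpifb1, Muc5b and Reg3g spread from control 4 down to control 6.

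Scgb1a1 encodes CC10, the main secreted protein of club cells. Its scaled intensity in lung was 294263, 323778 and 272656 on controls 4, 5 and 6 and 344095, 278427 and 238645 on acrylamide 28, 29 and 30. The groups overlapped, with the highest and the lowest value both among the treated arrays. The acrylamide minus control difference was -0.06 ± 0.16 log2 units (SE, n = 3 per group, limma adjusted p = 0.998), with a 95% confidence interval from -0.46 to 0.33.

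Scgb3a2, a secretoglobin of bronchiolar club cells known to appear early in lung development, was at 362564, 349664 and 211287 on controls 4, 5 and 6. On acrylamide 28, 29 and 30 it was at 332854, 276661 and 246585. The treated values lay inside the range of the controls, and control 6 was the lowest array. The difference was -0.08 ± 0.25 log2 units (SE, limma adjusted p = 0.998), with an interval from -0.68 to 0.52.

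Cbr2, a carbonyl reductase abundant in mouse lung, was at 345673, 356332 and 346264 on controls 4, 5 and 6 and at 398361, 315000 and 269021 on acrylamide 28, 29 and 30. The SD among controls was 0.02 log2 units, while treated arrays lay on both sides of them. The difference was -0.11 ± 0.16 log2 units (SE, limma adjusted p = 0.998), with an interval from -0.50 to 0.28. The dimmer Cbr2 spot gave 0.16 in the same contrast, so the 2 spots differed in sign, and the mean of both was 0.02.

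The steadiness of these 3 genes has a limit in brightness. Their brighter spots lay at 47.2% to 95.5% of the highest intensity on their array, and saturation flags were not used here. Before scaling, the raw intensity of Scgb1a1 varied 1.17-fold over the 6 lung arrays and that of Cbr2 1.26-fold, against 1.64-fold for the 75th percentile by which they are divided. After scaling the ranges were 1.44-fold and 1.48-fold. Scgb1a1 was highest on acrylamide 28, which had the lowest 75th percentile, and lowest on acrylamide 30, which had the highest. Scgb3a2 varied 1.55-fold before scaling and 1.72-fold after. The dimmer Cbr2 spot, at 20.7% to 37.8% of the highest intensity, had a range of 0.43 log2 units against 0.57 for the brighter spot.

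Scgb3a1, a secretoglobin of secretory cells in the larger airways, was at 173448, 65699 and 712.3 on controls 4, 5 and 6. On acrylamide 28, 29 and 30 it was at 33006, 58225 and 9178. All treated values fell between control 5 and control 6, and the untreated group alone spanned 243-fold. The acrylamide minus control difference was 0.37 ± 2.11 log2 units (SE, n = 3 per group, limma adjusted p = 0.999), with an interval from -4.81 to 5.55.

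Bpifa1 encodes SPLUNC1, an abundant secreted protein of the upper airways with surfactant and antibacterial activity. It was at 153903, 55500 and 402.5 on controls 4, 5 and 6 and at 7047, 39924 and 3232 on acrylamide 28, 29 and 30. Control 6 lay 8.03-fold below the next lowest array. The difference was -0.64 ± 2.35 log2 units (SE, limma adjusted p = 0.998), with an interval from -6.41 to 5.13.

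Bpifb1, or LPLUNC1, a larger BPI fold protein of goblet cells and glands, was at 30807, 13417 and 75.9 on controls 4, 5 and 6. It was at 3763, 13353 and 1675 on acrylamide 28, 29 and 30, with acrylamide 29 level with control 5. The difference was 0.47 ± 2.34 log2 units (SE, limma adjusted p = 0.999), with an interval from -5.27 to 6.22. Bpifa1 and Bpifb1 lie near each other on chromosome 2, as the promoters above show.

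Muc5b, a gel-forming mucin needed for clearance of the airways, was at 33530, 11904 and 285.6 on controls 4, 5 and 6 and at 12753, 12472 and 3631 on acrylamide 28, 29 and 30. Acrylamide 28, acrylamide 29 and control 5 lay close together in the middle of the range. The difference was 0.78 ± 1.79 log2 units (SE, limma adjusted p = 0.998), with an interval from -3.61 to 5.17. The dimmer Muc5b spot ranged over 6.41 log2 units, against 6.88 for the brighter, and gave a difference of 0.67.

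Reg3g, a C-type lectin that binds the cell wall of Gram-positive bacteria, had the widest range of the members. It was at 17156, 7906 and 11.8 on controls 4, 5 and 6 and at 1286, 4436 and 760.4 on acrylamide 28, 29 and 30. The spot was still above background on control 6. The difference was 0.48 ± 2.81 log2 units (SE, limma adjusted p = 0.999), with an interval from -6.41 to 7.37.

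No member was called with acrylamide in lung, and 0 of 22252 genes were, a share of 0%, with limma's test. At an unadjusted p under 0.05 there were 1102 genes (4.95%), and 356 of them reached 1.5-fold (1.60%). None of the 8 members was among them. The 2 groups did not overlap for 0 of 8 members, against 10.9% of all genes tested. Of the 8, 4 were higher and 4 lower, with a median of 0.16 log2 units, beside a median of -0.01 over all genes. For the 5 wide-ranging members the interval of the difference ran from at least 3.61 log2 units below 0 to 5.13 or more above it, so a change of several-fold in either direction was not detectable with these arrays.

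Control 6 set the sign for 4 of these 5 genes. Without it, limma's acrylamide minus control difference was -2.04 for Scgb3a1, -2.21 for Bpifb1, -1.26 for Muc5b and -2.84 for Reg3g, and for Bpifa1 it was -3.25, all with adjusted p of 0.85 or above. Without control 4 it was 1.93, 2.12, 2.18 and 2.42 for the same 4 and 1.04 for Bpifa1. Without acrylamide 29 the differences of Scgb3a1, Bpifb1 and Reg3g were -0.21, -0.33 and -0.24. Without both control 4 and control 6, an omission chosen after seeing the data, the differences were -1.34, -1.61, -0.52 and -2.28 for Scgb3a1, Bpifb1, Muc5b and Reg3g and -2.52 for Bpifa1, with control 5 as the only untreated array.

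The number in the titles read here as the row of the slide gave opposite signs. Row 1 held control 5 and acrylamide 28 and 30, and row 2 held controls 4 and 6 and acrylamide 29. Within row 1 the differences of Scgb3a1, Bpifa1, Bpifb1, Muc5b and Reg3g were -1.92, -3.54, -2.42, -0.81 and -3.00. Within row 2 they were 2.39, 2.34, 3.13, 2.01 and 3.30. With the row as a block they were 0.24, -0.60, 0.35, 0.60 and 0.15, and 0 genes were called. Scgb1a1, Scgb3a2 and Cbr2 differed by -0.18, -0.29 and -0.12 within row 1 and by -0.02, -0.0006 and -0.14 within row 2. The row's part in these values was not tested beyond this, since each row has a single array of one of the groups.

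**Figure D2:**
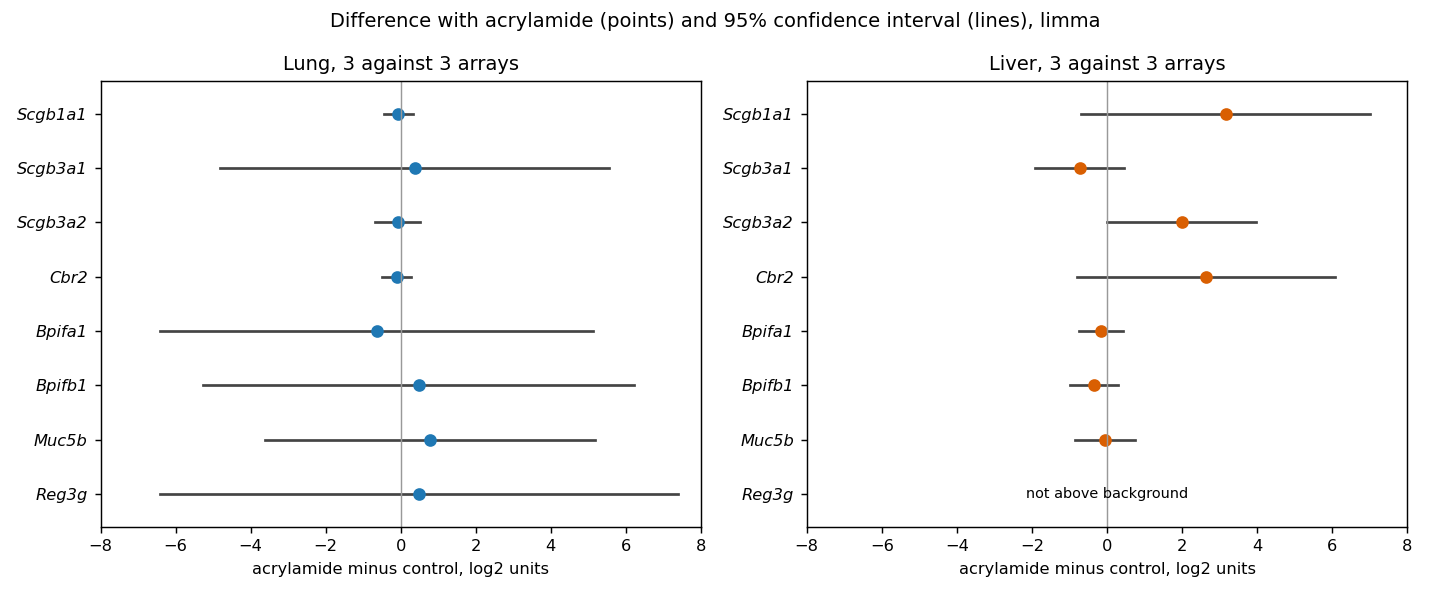
Acrylamide minus control difference of the 8 members in log2 units, in lung (left) and liver (right), with 3 arrays per group. Points are limma estimates and lines 95% confidence intervals. In lung the lines of Scgb1a1, Scgb3a2 and Cbr2 stay between -0.68 and 0.52, whereas those of the other 5 reach from -3.61 or below to 5.13 or above, and in liver the 3 club cell genes lie between 1.99 and 3.17.

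The 5 genes were grouped by their range on these arrays, so the ranks given here describe that grouping and do not test it. The median range of all genes tested in lung was 0.53 log2 units over the 6 arrays, and 0.885% had a range of 4 or more. By range, Reg3g ranked 5, Bpifb1 19, Bpifa1 21, Scgb3a1 28 and Muc5b 41 among 22252 genes. Scgb3a1, Bpifa1, Bpifb1 and Reg3g put the 6 arrays in the same order, from control 4 through control 5, acrylamide 29, acrylamide 28 and acrylamide 30 to control 6. That order was taken from Scgb3a1, and 0.458% of all genes tested had it, these 4 included. Muc5b kept the same ends and differed in the middle. Scgb3a2 also had control 4 highest and control 6 lowest, though over 1.72-fold, and 6.16% of all genes shared those ends.

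The genes nearest to Bpifa1 in pattern over the 6 lung arrays, by the root mean square difference of centred log2 levels, were Gp2 (0.38), Bpifb1 (0.61), Tff2 (0.63), Scgb3a1 (0.73) and Nppa (0.80). Reg3g and Muc5b ranked 8 and 11 of 22251 genes. Gp2, a membrane glycoprotein known from M cells and pancreatic acini, was at 479.1, 195.8 and 2.26 on controls 4, 5 and 6, the last not above background, and at 47.2, 181.9 and 17.1 on acrylamide 28, 29 and 30. Tff2, a trefoil peptide secreted with mucus, was at 1577, 837.7 and 4.26 and at 244.3, 649.8 and 80.5 on the same arrays. Nppa, the atrial natriuretic peptide of heart muscle, was at 8388, 1789 and 42.4 and at 272.1, 3826 and 75.1. These 6 points per gene are libraries of one experiment, so the likeness is a description.

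Other genes of airway secretory cells repeated the order in part. Of 23 further club, goblet and serous cell genes measured in lung, 9 had control 4 highest and control 6 lowest: Lypd2, Gabrp, Ltf, Agr2, Muc4, Muc5ac, Tff2, Aldh1a1 and Aldh3a1. Ltf, the iron-binding lactoferrin of serous glands, was at 18376, 5142 and 225.9 on controls 4, 5 and 6 and at 852.2, 4174 and 692.5 on acrylamide 28, 29 and 30. Agr2, a disulfide isomerase needed to fold mucins, was at 1182, 588.4 and 74.1 and at 219.1, 642.9 and 148.1. Aldh3a1, a detoxifying aldehyde dehydrogenase of the airway epithelium, varied less, from 11598 on control 4 to 4074 on control 6. Cyp2f2, the club cell P450 that activates naphthalene, was as level as Scgb1a1, at 199092, 204408 and 188580 and at 222242, 176195 and 157978.

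In the acrylamide contrast 0 of these 23 genes were called in lung, 5 being higher and 18 lower, with a median of -0.10 log2 units. The furthest from 0 were Ltf at -1.04, Dmbt1 at -0.78, Chil4 at 0.67 and Agr2 at -0.44. Of 10 measured relatives of the BPI fold proteins 5 were higher and 5 lower, with Bpifa6 at 2.56 ± 1.90 log2 units (SE, limma adjusted p = 0.998) and Bpifb6 at -0.46. Bpifa6 was at 367.8 on acrylamide 29 and at 9.12 or less on the other 5 lung arrays. Of the 4 measured relatives among secretoglobins, 2 were higher and 2 lower, between -0.26 for Scgb1b27 and 0.18 for Scgb1c1. The Reg family relatives measured, Reg1 and Reg3d, differed by 0.12 and 0.00.

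Transcription factors and Notch genes that direct airway epithelium were not called in lung. Of 20, 9 were higher and 11 lower, with a median of -0.01 log2 units, 0 called and 0 at an unadjusted p under 0.05 with 1.5-fold. Notch1 and Notch3, receptors in the choice between secretory and ciliated fate, differed by -0.58 and -0.38, and Cebpd, a factor of secretory cell maturation, by 0.46. Nkx2-1 was at 5698, 4921 and 5718 on controls 4, 5 and 6 and at 4031, 4021 and 4937 on acrylamide 28, 29 and 30, a difference of -0.33 ± 0.13 (SE, limma adjusted p = 0.998). Of these 20 genes, Foxa1, Spdef and Elf3 had control 4 highest and control 6 lowest. Foxa1 was at 13487, 13350 and 5717 on controls 4, 5 and 6, and Spdef, the goblet cell factor, at 1205, 1125 and 685.9.

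Mediators that act on airway secretion included 2 of 13 with an unadjusted p under 0.05 and a fold of at least 1.5, both lower with acrylamide, against 0.948% of all genes in that direction. Cxcl5, a neutrophil chemokine, was at 1212, 1909 and 484.5 on controls 4, 5 and 6 and at 416.1, 498.8 and 260.7 on acrylamide 28, 29 and 30, a difference of -1.46 ± 0.54 log2 units (SE, limma adjusted p = 0.998). Il25, an epithelial cytokine of type 2 immunity, lay near background, at 1.78 to 8.74, with a difference of -1.13. Il13 itself differed by 0.29. Of the 13, 5 were higher and 8 lower.

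Most markers of heart muscle, ciliated cells and smooth muscle had the same highest and lowest lung arrays as the 5 wide-ranging members. In this whole-tissue RNA, fewer cells of a type and less RNA per cell cannot be told apart. All 6 of 6 heart muscle markers had control 4 highest and control 6 lowest, and their summed scaled intensity was 24856 to 199823 in the untreated group and 71451 to 109834 in the treated group. Myh6, the alpha myosin heavy chain of heart muscle, was at 68786, 27493 and 6262 on controls 4, 5 and 6 and at 24389, 34814 and 21555 on acrylamide 28, 29 and 30. Of 12 ciliated cell markers, 9 had the same ends, with sums of 126151 to 160390 in controls and 131686 to 169369 with acrylamide, and Foxj1 fell from 7697 on control 4 to 3287 on control 6. Of 6 smooth muscle markers, 4 did, with sums of 43035 to 104984 and 62020 to 76638. No marker of these 3 lists was at background in lung. Their part in the values of the members was not tested.

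Basal and squamous epithelial genes followed another array. The 6 basal cell markers summed to 17602 on acrylamide 29 and to at most 6148 on the other lung arrays. Krt5, a keratin of basal cells, was at 719.6, 116.4 and 36.1 on controls 4, 5 and 6 and at 47.0, 4965 and 44.7 on acrylamide 28, 29 and 30. Krt13, a keratin of stratified squamous epithelium, was at 5783 on acrylamide 29, 511.7 on control 4 and at most 11.1 elsewhere. Of the 197 lung genes with a range of at least 4 log2 units, 125 (63.5%) were highest on acrylamide 29 and 27 had the ends of the 5 members. Clca1, a secreted goblet cell protein, had the widest range of all lung genes, at 15079 on acrylamide 29, 906.0 on control 4, 212.3 on control 5 and 21.9 or less on the other 3. None of the 8 members was highest on acrylamide 29.

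The alveolar markers did not share the range. The 9 alveolar type 2 markers summed to 1002605 to 1088399 in untreated and 876308 to 1126827 in treated lung, and the 8 alveolar type 1 markers to 592667 to 651647 and 539286 to 675107. Of these 17 genes 0 had control 4 highest and control 6 lowest. The genes nearest in pattern to Scgb1a1 over the 6 lung arrays were Sftpc (0.03), Hba-a2 (0.03), Hp (0.04), Ftl1 (0.04) and Cyp2f2 (0.05), with Cbr2 ranked 24. All 5 are also very bright, at 157978 or more in scaled intensity on every lung array, so the shape they share includes what the scaling gives to spots of nearly constant raw intensity.

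**Figure D3:**
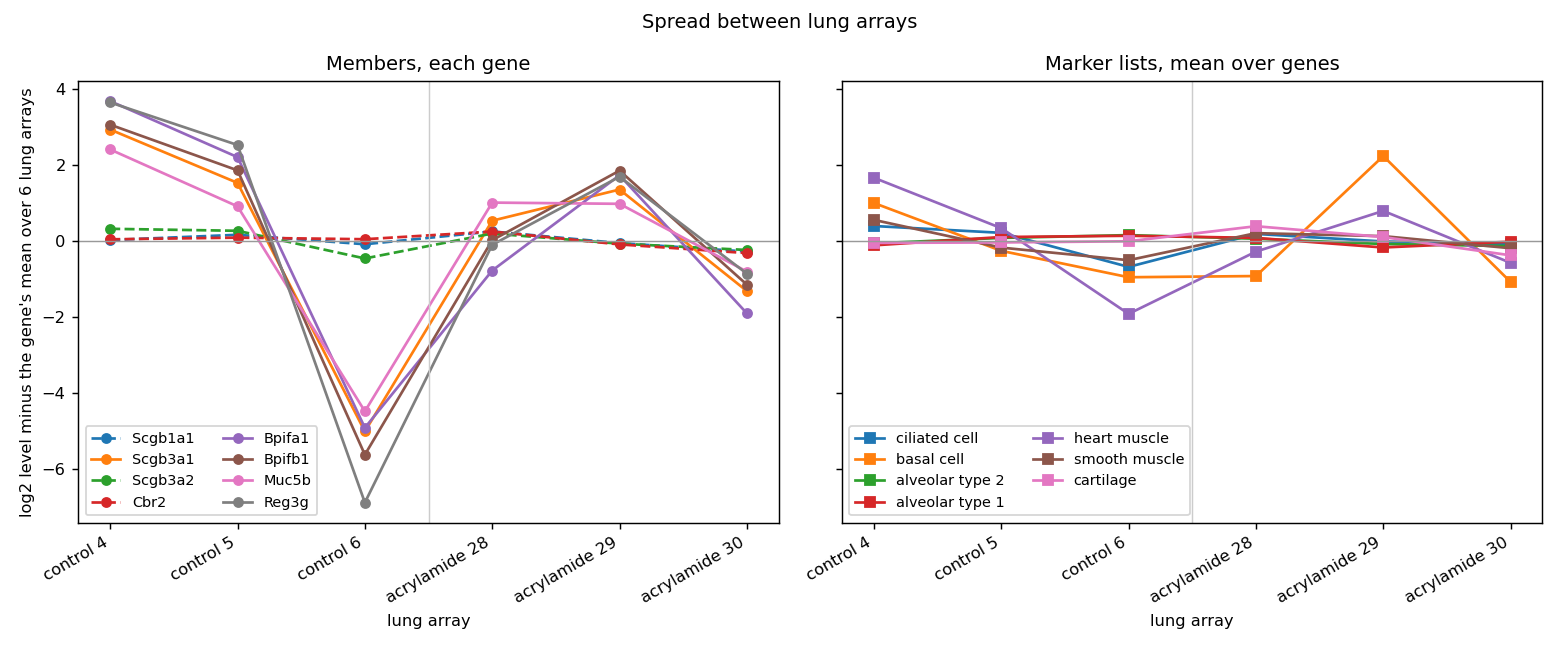
Level on the 6 lung arrays as log2 units from the mean of those arrays, for each of the 8 members (left; dashed lines for Scgb1a1, Scgb3a2 and Cbr2) and as the mean over the genes of 7 marker lists (right). The solid lines on the left and the heart muscle list on the right are highest on control 4 and lowest on control 6, the basal cell list peaks on acrylamide 29, and the alveolar lists stay between -0.17 and 0.15.

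In liver, where club cells do not occur, the 3 distal club cell genes were raised on acrylamide 27 and 29 and not on acrylamide 30. Scgb1a1 was at 74.8, 105.3 and 144.1 on controls 1, 3 and 4 and at 5088, 2445 and 66.1 on acrylamide 27, 29 and 30. Folds and fractions of a liver control mean are taken here and below against the mean log2 level. Control means printed as levels, and shares of the lung level, use the mean of scaled intensity. Acrylamide 27 and 29 lay 48.8-fold and 23.4-fold above the mean of the controls, and acrylamide 30 lay below every control. The value on acrylamide 30 was close to that array's raised background limit, 56.9 in scaled intensity, against 5.61 to 7.87 on the controls. The difference was 3.17 ± 1.58 log2 units (SE, n = 3 per group, limma adjusted p = 0.784), with an interval from -0.68 to 7.02.

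Scgb3a2 was at 140.8, 104.6 and 122.2 on liver controls 1, 3 and 4 and at 987.8, 926.0 and 122.2 on acrylamide 27, 29 and 30. The raised arrays lay 8.12-fold and 7.61-fold above the control mean. The difference was 1.99 ± 0.81 log2 units (SE, limma adjusted p = 0.784). Its unadjusted p was 0.0495 in the fit across all genes, which made it the 1 of 7 members tested past that level with at least 1.5-fold. In that direction 1.69% of all genes were.

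Cbr2 was at 134.1, 55.7 and 68.2 on liver controls 1, 3 and 4 and at 2288, 1093 and 48.9 on acrylamide 27, 29 and 30, the last not above background. The raised arrays lay 28.6-fold and 13.7-fold above the control mean, and the difference was 2.64 ± 1.41 log2 units (SE, limma adjusted p = 0.784). The other Cbr2 spot was raised on the same arrays by less, 2.10-fold and 1.57-fold, from a control level of 120.7 to 135.8.

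The other 5 members showed no such rise in liver. Scgb3a1 was at 37.0, 51.5 and 88.3 on controls 1, 3 and 4 and at 33.9, 57.0 and 19.0 on acrylamide 27, 29 and 30. Bpifb1 ran from 18.9, on acrylamide 30, to 37.7 and Muc5b from 48.8 to 108.1. Bpifa1 was at 981.5 to 1690 on all 6 liver arrays, with acrylamide 27 and 29 the lowest after scaling. Before scaling it was at 497.8 to 648.0 and lowest on acrylamide 30. The 75th percentiles used for scaling were 620.1 and 621.5 on acrylamide 27 and 29 and 294.5 on acrylamide 30. The differences of Scgb3a1, Bpifa1, Bpifb1 and Muc5b were -0.73, -0.16, -0.35 and -0.04, with limma adjusted p from 0.793 to 0.982. Scgb3a1 and Bpifb1 were not above background on acrylamide 30, so their differences rest in part on values below its limit, and without that array they were -0.33 and -0.10. Reg3g was above background on 0 of 6 liver arrays and was not tested there.

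No member was called in liver, where limma called 0 of 21169 genes (0%), with 1278 (6.04%) at an unadjusted p under 0.05 and 785 (3.71%) of those at 1.5-fold. The groups did not overlap for 0 of the 7 members tested, against 12.2% of all genes. The 3 club cell genes were nonetheless among the widest in range over liver arrays: 99.9% of genes had a smaller range than Scgb1a1, 99.7% than Cbr2 and 97.0% than Scgb3a2. Without acrylamide 30 the differences of Scgb1a1, Scgb3a2 and Cbr2 were 5.08, 2.98 and 4.31, and limma's lowest adjusted p among them was 0.106. Without both acrylamide 27 and 29, an omission chosen after seeing the data, they were -0.66, 0.01 and -0.06 and 48 genes were called, with acrylamide 30 as the only treated array.

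Within liver row 1, which held controls 1 and 3 and acrylamide 27 and 30, the differences of Scgb1a1, Scgb3a2 and Cbr2 were 2.71, 1.52 and 1.95. Within row 2, with 1 array of each group, they were 4.09, 2.92 and 4.003. With the row as a block the differences were the same as without it. Of the 2 raised arrays, acrylamide 27 lay in row 1 and acrylamide 29 in row 2.

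Some surfactant genes were raised on the same 2 liver arrays, and most other alveolar markers were not. Sftpc, the surfactant protein of alveolar type 2 cells, was at 5.72, 17.6 and 14.3 on liver controls 1, 3 and 4 and at 6172, 636.6 and 20.7 on acrylamide 27, 29 and 30, with control 1 and acrylamide 30 not above background. Sftpb lay 132-fold and 27.5-fold above its control mean on acrylamide 27 and 29, and Sftpa1 8.29-fold and 1.75-fold. The Sftpb control mean, 5.5, lay under the background limit of every liver control, 5.61 to 7.87 in scaled intensity. Its folds are therefore ratios to background. On acrylamide 30 Sftpb and Sftpa1 lay 3.60-fold and 1.56-fold above their control means. Of the 9 type 2 markers, these 3 were the ones above every control on both acrylamide 27 and 29. They were also above every control on acrylamide 30, where Sftpc and Sftpb were not above background. Abca3, a lipid transporter of lamellar bodies, lay at 0.80 and 0.86 of its control mean on acrylamide 27 and 29, and Etv5 at 0.82 and 0.74. Of the 8 type 1 markers, Rtkn2 alone was above every control on both, and Ager, the classic type 1 marker, lay at 0.83 and 0.80 of its control mean. How many of all genes were above every control on these arrays was not counted, so the marker counts have no background share beside them. The excess over the control mean, as a share of the gene's mean scaled intensity in lung, was 1.71% and 0.80% on acrylamide 27 and 29 for Scgb1a1, 0.65% and 0.30% for the brighter Cbr2 spot, 0.13% and 0.07% for the other Cbr2 spot and 0.29% and 0.27% for Scgb3a2. It was 1.63% and 0.17% for Sftpc, 0.64% and 0.13% for Sftpb and 0.25% and 0.02% for Sftpa1. The mean lung level was 1.301, 15.4 and 14.4 times the liver control mean for Abca3, Etv5 and Ager. For Sftpa1 it was 2807 times that mean, and for Sftpb and Sftpc more. An equal share of the lung level would therefore raise Abca3, Etv5 and Ager far less. No conclusion is drawn from their lack of a rise.

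For the whole type 2 list, 7 to 8 of 9 markers were above background on liver controls and 6 to 9 on treated liver arrays, with sums of 59441 to 69609 and 58981 to 75007. Abca3, at a control mean of 54294, made up most of that sum, which therefore could not show the rise of the surfactant genes. Ciliated cell markers summed to 6181 to 7728 on liver controls and 6201 to 6345 on treated liver arrays, of which Dnaic1, at a control mean of 4968, was again most. Of the 12 ciliated markers, Tekt1 alone was above every control on both acrylamide 27 and 29. It was also above them on acrylamide 30, where it lay under that array's raised background limit. The part of lung RNA in the liver values was not tested.

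The genes nearest to Scgb1a1 in pattern over the 6 liver arrays were Cbr2 (0.71), Scgb3a2 (1.18), Sftpc (1.302), Myc (1.303) and Il1a (1.55), by the same measure, among 21168 genes. Myc, a growth-promoting transcription factor, was at 106.5, 206.2 and 98.1 on controls 1, 3 and 4 and at 2072, 332.5 and 83.8 on acrylamide 27, 29 and 30. Il1a, an alarm cytokine, was at 23.6, 40.4 and 24.1 and at 131.9, 111.7 and 27.1, the last not above background.

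**Figure D4:**
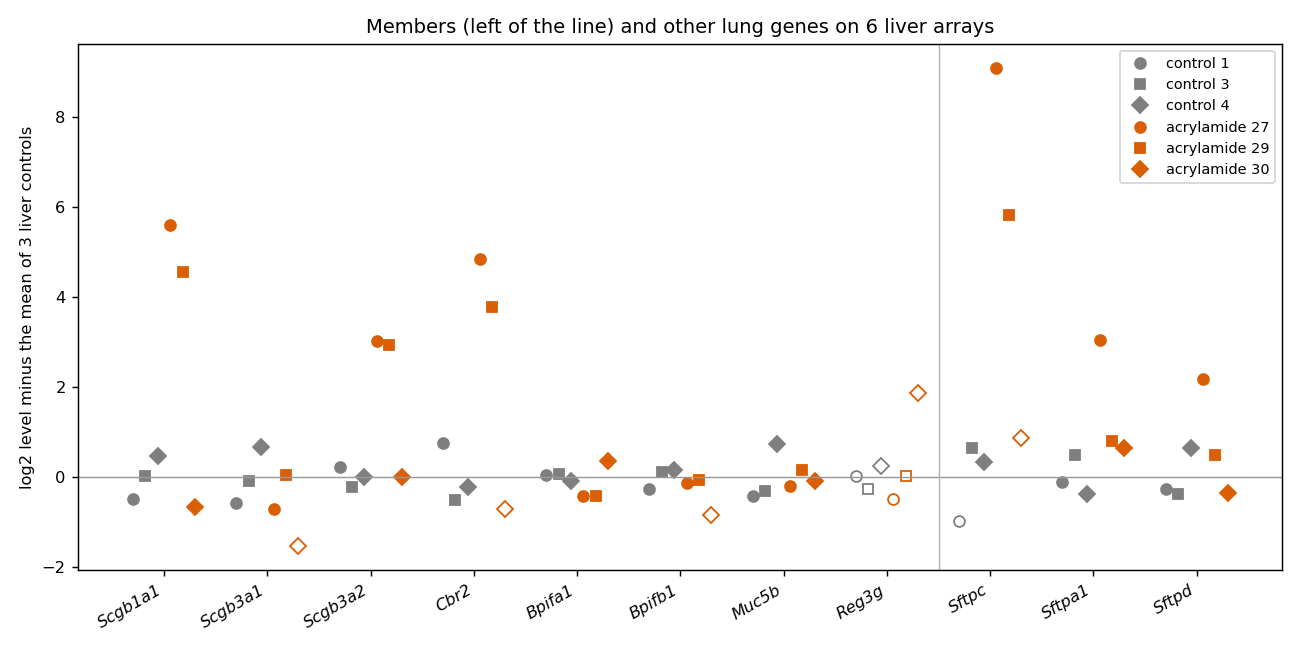
Level on the 6 liver arrays as log2 units from the mean of the 3 liver controls, for the 8 members and for the surfactant genes Sftpc, Sftpa1 and Sftpd. Each point is an array, and open points are not above background. Scgb1a1, Scgb3a2, Cbr2 and Sftpc lie above every control on acrylamide 27 and 29 and not on acrylamide 30, apart from the spot of Sftpc there, which is not above background.

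The other airway lists had no called gene in liver. Of 21 further club, goblet and serous cell genes measured there, 10 were higher and 11 lower, with a median of -0.12 log2 units, 0 called and 0 at an unadjusted p under 0.05 with 1.5-fold. Muc4, a membrane mucin, at 1.70, Itln1, a lectin, at -0.99 and Muc1 at -0.97 were furthest from 0. Control 4 weighed on each, at 13.2, 4.20 and 5.61 times the control mean, against 0.24 to 0.98 on controls 1 and 3. Muc4 was at 0.61, 4.16 and 13.4 times that mean on acrylamide 27, 29 and 30. The groups did not overlap for 3 of the 21, close to the 12.2% of all genes, so the count does not set the list apart. All 3 were higher on every treated array, acrylamide 30 included. Cyp4b1, a P450, was at 1775, 1699 and 1889 on controls 1, 3 and 4 and at 2977, 2577 and 2235 on acrylamide 27, 29 and 30, a difference of 0.53. Sec14l3, a lipid-binding protein, differed by 0.40 and Cyp2f2, which liver also expresses, by 0.22 (limma adjusted p = 0.784 each). These 3 were named after their values were seen. Dmbt1, a scavenger glycoprotein of ducts and glands, had the second widest range of all liver genes, at 53018 on control 4 and 18051 on acrylamide 29 and at most 36.4 on the other 4. Of 18 airway regulators 4 had an unadjusted p under 0.05 with 1.5-fold, all lower, against 2.02% of all genes in that direction: Hes1 at -0.99, Grhl2 at -0.88, Notch1 at -0.87 and Jag1 at -0.63. Notch1 was at 5689, 4802 and 4342 on controls 1, 3 and 4 and at 2238, 2817 and 3066 on acrylamide 27, 29 and 30 (limma adjusted p = 0.784). Of 8 BPI fold relatives 7 were higher, with Bpifa3 at 0.72 and a median of 0.29, beside 46.9% of all genes higher. Only 4 BPI fold relatives were above background on acrylamide 30, against 8 to 9 on the other liver arrays, and that array had the highest mean of the list, so this count leans on values near a raised background. Of 4 secretoglobins 1 was higher, and of 2 Reg genes 0 were. Of 12 mediators 4 were higher and 8 lower, with Il1b at 1.298 and Cxcl1 at -0.95.

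The difference between the tissues in their acrylamide contrast was tested over all 12 arrays, and limma called 0 of 23300 genes (0%), with 1035 (4.44%) at an unadjusted p under 0.05. The lung minus liver difference of contrasts was -3.23 ± 1.77 log2 units for Scgb1a1, -2.07 ± 0.94 for Scgb3a2 and -2.75 ± 1.58 for Cbr2 (SE, limma adjusted p = 0.994 each). The other 5 members lay between -0.48 and 1.11 with standard errors of 1.99 to 3.14. Without liver acrylamide 30 the 3 club cell genes were called, at -5.14, -3.05 and -4.42 (limma adjusted p = 0.00728, 0.00728 and 0.00788), among 136 genes. With arrayWeights, which gives variable arrays less weight, Scgb1a1 was at -4.59 (adjusted p = 0.0395) and Scgb3a2 at -2.98 (adjusted p = 0.0273), among 139 genes. With any other single array left out, adjusted p was 0.923 or above for all 3.

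The untreated lung against the untreated liver gave each member's tissue level without acrylamide. Lung was higher by 11.47 ± 0.25 log2 units for Scgb1a1, 11.26 ± 0.25 for Scgb3a2 and 12.09 ± 0.33 for Cbr2 (SE, n = 3 per group, limma adjusted p = 4.5e-07, 4.5e-07 and 7.3e-07). Scgb3a1 was higher by 8.51 ± 1.97 (adjusted p = 0.00736), Bpifb1 by 6.55 ± 2.16 (adjusted p = 0.0307) and Muc5b by 6.22 ± 1.69 (adjusted p = 0.0145). The size depended on the spot, since the other Cbr2 spot gave 9.66 and the other Muc5b spot 4.27. Reg3g, not above background on any liver control, was at least 176-fold higher in lung (adjusted p = 0.0379), taking for each liver array the higher of its spot and the lowest signal above background.

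Bpifa1 was the 1 member not called in this contrast, at 3.52 ± 2.11 log2 units (SE, limma adjusted p = 0.172). Its level on lung control 6, 402.5, lay below all 3 liver controls, at 1225 to 1377, so the groups overlapped. Before scaling, lung control 6 was at 488.5 and the liver controls at 519.5 to 648.0. The 75th percentile was 1214 on lung control 6 and 423.9 to 481.7 on the liver controls. Without lung control 6 the difference was 6.14 and was called (adjusted p = 0.000126). With 7 of 8 members called, the background was high, since 74.4% of 22441 genes were called between the tissues and 32.0% higher in lung. The calls of Bpifb1 and Reg3g were also lost when any 1 of the liver controls was left out (adjusted p = 0.0643 to 0.0942), and that of Bpifb1 without lung control 4 or 5 (0.0863 and 0.0916).

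In treated mice the members were higher in lung by 8.24 ± 1.64 log2 units for Scgb1a1, 9.61 ± 0.77 for Scgb3a1, 9.20 ± 0.85 for Scgb3a2 and 9.35 ± 1.44 for Cbr2 (SE, n = 3 per group). Bpifb1 stood at 7.37 ± 0.77 and Muc5b at 7.04 ± 0.52. Reg3g was 131-fold higher in mean log2 level, with liver arrays taken as in the untreated contrast. The interval of limma's difference for Reg3g ran from 5.41 to 9.78 log2 units. Bpifa1, at 3.04 ± 0.93, was called at an adjusted p of 0.028, and lost that call without liver acrylamide 27 or 29 or lung acrylamide 28 (adjusted p = 0.0733, 0.0761 and 0.0531). All 8 members were called by limma, against 72.8% of 22115 genes and 31.3% higher in lung. The 2 tissue contrasts share no arrays. For Scgb1a1, Scgb3a2 and Cbr2 the tissue difference was smaller with acrylamide, a comparison whose test is the difference of contrasts given above.

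The same contrast in untreated mice placed the members among other airway genes. Of 23 further club, goblet and serous cell genes 16 were called higher in lung and 2 lower, with a median of 4.80 log2 units, beside -0.28 over all genes. Retnla, a secreted resistin-like protein, led at 9.13, and Muc4 and Cldn10, a claudin of club cells, followed at 8.34 and 7.36. Of 20 airway regulators 16 were called higher, with Nkx2-1 at 9.93, and 3 lower, with Foxa3 at -6.67. Of the relatives by family, Scgb1c1 at 6.94 and Bpifb5 at 6.07 were the only ones called higher in lung among 4 secretoglobins and 10 BPI fold genes measured. Of those, 2 and 7 were called lower, and of 2 Reg genes 1 was.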

How the data were processed

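Each deposited file gives, for 62976 spots, a Cy3 intensity on a linear scale. The submitters' processing notes name Agilent Feature Extraction 10.7. Whether the authors subtracted background is not given in the sources used here. RNA was extracted with miRNeasy kits and labelled with a one-colour kit, per the labels' protocols. The authors' series matrix, also intensity, is the deposited array values times 1 factor per array and was used as an alternative.

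Spots of 1319 controls were left out. From log2 intensity the 75th percentile of the array, taken over its other 61657 spots, was subtracted; of these spots 20646 have no gene name here. Background was judged against 308 negative control spots. A gene entered a fit through its brightest spot that passed background on 3 or more of the arrays fitted. R 4.3.3 and limma 3.58.1 were used, with lmFit and eBayes, within the groups compared, with Benjamini-Hochberg adjustment over all genes. The fits were tested on simulated data. No 2 arrays were identical, and the number of arrays limits the precision. Gene names, promoters and their coordinates come from RefSeq tables of GRCm38.p6, and the array files name no build.

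The members and lists were chosen with earlier results of these data known. The text names all members, the 2 to 4 genes of each list with the largest difference, the 5 genes nearest in pattern to Scgb1a1 (lung, liver) and Bpifa1 (lung), and markers. Other names, such as Clca1, Krt13, Ltf in lung and Dmbt1 in liver, were chosen after their values were seen. Alternatives were scaling (quantile, median, series matrix), background filters, mean of spots, every spot, an added offset, an intensity trend, arrayWeights, slide row, 1 fit of 12 arrays, title number as a block and leaving out arrays. Title numbers 4, 29 and 30 occur in both tissues, but deviations of same-numbered arrays correlated at 0.01, -0.02 and -0.16, so they were not treated as pairs.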

Additional observations from a re-analysis of the deposited data

How the results depend on the processing

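In lung, 0 genes were called under every alternative run. In liver, 2 were called in 1 fit of 12 arrays, 48 without acrylamide 27 and 29, and 0 to 1 with 1 array left out. For the difference between tissues, 139 were called with arrayWeights and 0 to 136 with 1 array left out. The signs of small or variable differences were not stable, and the cause was not tested. In lung, Scgb3a2 was 0.0281 after quantile scaling and Cbr2 0.0236 as the mean of its spots. Within lung row 1, Scgb3a1, Bpifb1, Muc5b and Reg3g were -1.92, -2.42, -0.81 and -3.00. Bpifa1 was 2.34 within row 2. Without lung controls 4 and 6 those 4 were -1.34, -1.61, -0.52 and -2.28. In liver, Muc5b was 0.22 within row 1, and without acrylamide 27 and 29 Scgb1a1, Cbr2 and Bpifa1 were -0.66, -0.0595 and 0.36. The difference between tissues of Reg3g was -0.0373 after quantile and -0.0103 after median scaling.

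With 1 array left out, the lung difference ran from -0.20 to 0.0637 for Scgb1a1, -2.04 to 1.93 for Scgb3a1, -0.33 to 0.0591 for Scgb3a2, -0.26 to 0.0199 for Cbr2, -3.25 to 1.04 for Bpifa1, -2.21 to 2.12 for Bpifb1, -1.26 to 2.18 for Muc5b and -2.84 to 2.42 for Reg3g. For Muc5b in liver it ran from -0.25 to 0.32. The difference between tissues ran from -1.30 to 2.66 for Scgb3a1, -3.10 to 1.19 for Bpifa1, -1.87 to 2.47 for Bpifb1, -1.22 to 2.22 for Muc5b and -3.30 to 1.96 for Reg3g. Reg3g against untreated liver was 5.20 and not called with 16 added to each intensity (limma adjusted p = 0.0525), and was not tested with a lung array left out, since fewer than 3 arrays were then above background.

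With the title number as a replicate block, 16561 genes were called between untreated tissues, 16286 between treated tissues and 0 for the difference between them. Of the members' calls that block ended Bpifa1 between treated tissues, at 3.03 (limma adjusted p = 0.176), as did 1 fit of 12 arrays, at 3.04 (adjusted p = 0.152). No paired analysis was possible within a tissue because control and treated arrays there share no title number. Differences near background, such as Reg3g in liver, were limited by signal.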
